A study of Mus musculus with 18 samples.

Results

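The NMDA receptor subunit genes described here are the 6 listed Grin genes Grin1, Grin2a, Grin2b, Grin2c, Grin2d and Grin3a. They were listed by name as subunits of 1 receptor, with earlier results of these data known, and matched to Ensembl gene identifiers. All 6 were found among the 38561 genes counted in the brains of adult WT and Pcm1-/- mice, and all 6 were among the 17545 genes with enough reads to be tested.

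NMDA receptors are glutamate-gated channels of excitatory synapses that pass calcium when glutamate and a co-agonist, glycine or D-serine, bind together with depolarization. Each receptor contains the obligatory subunit GluN1, encoded by Grin1, which binds the co-agonist. The partners of GluN1 are glutamate-binding GluN2 subunits, encoded by Grin2a to Grin2d, or GluN3 subunits such as GluN3A, encoded by Grin3a, which binds glycine and lowers calcium permeability. GluN2A and GluN2B are the main GluN2 subunits of the adult forebrain, GluN2C is best known from cerebellar granule cells, and GluN2D is prominent early in development and in interneurons.

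The study compared littermates on a C57 Bl6J background that carried a gene-trap insertion in both copies of Pcm1 (Pcm1-/-, labelled KO in the plots) with WT mice. Pcm1 encodes a protein of centriolar satellites, and the sequencing asked which transcripts change with its loss in the adult brain. Frontal cortex, striatum and hippocampus were each dissected from 3 WT and 3 Pcm1-/- animals, which gave 6 groups of 3 libraries and 18 libraries in all. The mice received no treatment that the labels name, and both sexes were used in the study, without the sex of a given library being labelled. The insertion came from 1 line of gene-trap embryonic stem cells and is not limited to a cell type.

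The libraries were of poly(A) RNA from whole dissected tissue and held between 24950537 and 33405081 reads counted on genes. Levels are given as CPM, the counts brought to a common library total with TMM scaling factors. Pcm1 counts were 313 to 520 in the mutant libraries and 3425 to 4919 in the WT libraries, so every library followed its genotype label. A list of 6 striatal markers (including Drd1 and Drd2) summed to 5749.9 to 6703 CPM in the striatum and to 163 to 211 CPM elsewhere, and a list of 7 cortical markers to at most 124 CPM in the striatum. Hippocampal libraries differed in their carry-over of choroid plexus, whose 7 markers summed to between 223 and 6314 CPM, and 1 WT striatum library held 6015 CPM of these markers. Where a level differed between groups of such bulk samples, fewer cells of a type and less RNA per cell cannot be told apart. The lanes named in the sample descriptions were spread over both genotypes in the frontal cortex and hippocampus. In the striatum all WT libraries were from lane 5 and the mutant libraries from lanes 3 and 4, so the effects of lane and of genotype cannot be told apart there.

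On the mouse genome GRCm38, the 6 genes are on different chromosomes and all on the minus strand. Grin1 (ENSMUSG00000026959) lies at chr2:25291181-25319187 and Grin2a (ENSMUSG00000059003) at chr16:9567898-9995560. Grin2b (ENSMUSG00000030209) lies at chr6:135713233-136173511 and Grin2c (ENSMUSG00000020734) at chr11:115249169-115267243. Grin2d (ENSMUSG00000002771) lies at chr7:45831883-45878378 and Grin3a (ENSMUSG00000039579) at chr4:49661611-49845744. The genes differ widely in transcript length. The longest annotated transcript has 24060 bases for Grin2b and 14634 for Grin2a, against 7491 for Grin3a, 5431 for Grin2d, 4895 for Grin2c and 4276 for Grin1. The GC content of these transcripts also differs, with 44.8% for Grin2a and 45.7% for Grin2b, 49.2% for Grin3a, 59.4% for Grin1, 62.1% for Grin2c and 65.0% for Grin2d. Antisense genes overlap 13.5% of the exonic length of Grin1 (Grin1os) and 9.66% of that of Grin2d (Gm45441). The libraries were stranded, but the strand setting of the counting was not given in the sources used here, and Grin1os itself was listed at 58 to 163 counts per library against 9178 to 15121 for Grin1.

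Of the 6 genes, 3 had a promoter entry in the RefSeq table for GRCm38.p6. The entry of Grin1 is shown because Grin1 was the member with the most reads and the member that passed the genotype test when the regions of an animal were added. It covers the 250 bases before the gene's start, chr2:25319188-25319437, read on the minus strand, with each CACGTG E box in capitals:

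Grin1 promoter: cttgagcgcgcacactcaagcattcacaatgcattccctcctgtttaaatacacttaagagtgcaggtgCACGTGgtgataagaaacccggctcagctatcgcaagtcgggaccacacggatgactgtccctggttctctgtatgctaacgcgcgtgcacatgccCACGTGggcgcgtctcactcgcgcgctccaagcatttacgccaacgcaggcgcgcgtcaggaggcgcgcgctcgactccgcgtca

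The E box CACGTG, which reads the same on both strands, occurs 2 times in this window, while 6.04% of 32536 promoters of the table hold it at all. The windows of Grin2c and Grin2d hold none. The Grin1 window has a GC content of 58.8% against a median of 52.4% over all promoters, and it holds 27 CpG dinucleotides against 15 in the Grin2c window and 9 in the Grin2d window. The GC box GGGCGG occurs 3 times in the Grin2c window and in neither of the others, and the cyclic AMP response element TGACGTCA in none of the 3 windows. They are held by 33.0% and 1.56% of all promoters. These matches are of letters only.

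Grin1, the subunit that every NMDA receptor needs, was higher in Pcm1-/- mice. It gave 431, 407 and 392 CPM in the WT frontal cortex and 465, 467 and 460.4 CPM in the mutant. In the striatum the WT values were 394, 339 and 328 CPM and the mutant values 447, 413 and 469 CPM. The WT hippocampus gave 377, 374 and 308 CPM and the mutant hippocampus 399, 478 and 390.1 CPM. Each mutant library was thus above each WT library of its region, in all 3 regions. This held for 1.9% of the genes tested, while 12%, 9.6% and 10.6% did so in the frontal cortex, striatum and hippocampus taken singly. Since the regions came from the same animals, they are not separate replicates.

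**Figure D1:**
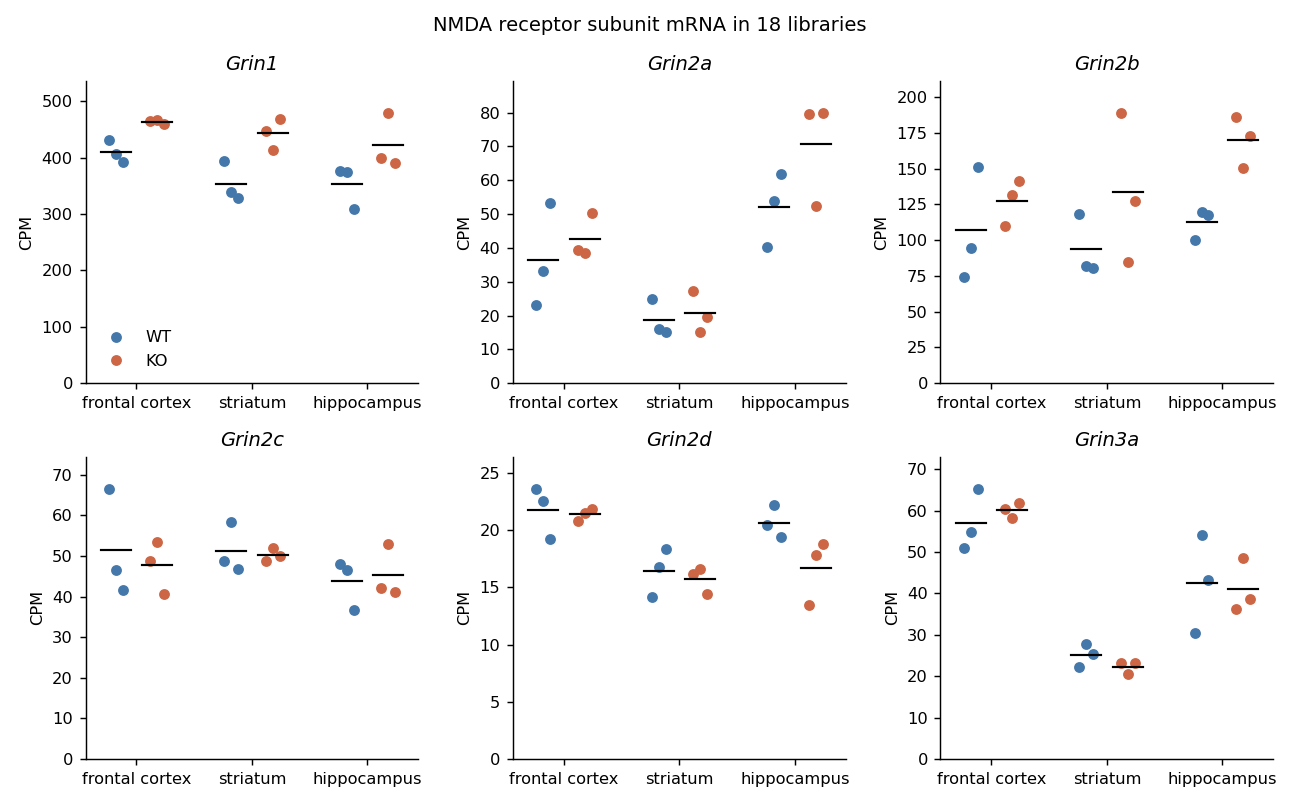
CPM of the 6 subunit genes in each of the 18 libraries, by region and genotype. Points are libraries, 3 per group, and black lines are group means. For Grin1 the mutant points lie above the WT points in each region (lowest mutant values 460.4, 413 and 390.1 CPM, highest WT values 431, 394 and 377 CPM), and Grin2a and Grin3a are lowest in the striatum.

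Within single regions the difference of Grin1 did not pass the test over all genes. The log2 fold change of Grin1 (Pcm1-/- over WT) was 0.17 ± 0.0521 (SE) in frontal cortex, with an edgeR adjusted p of 0.163. Striatal Grin1 differed by 0.33 ± 0.0891, with an edgeR adjusted p of 0.205, and hippocampal Grin1 by 0.24 ± 0.112, with an edgeR adjusted p of 0.529. With 1 library left out the hippocampal Grin1 value ranged from 0.14 (without replicate 3 of WT) to 0.29 (without replicate 1 of WT), and was 0.15 without replicate 2 of the mutant. The test of a different genotype effect between regions gave Grin1 an edgeR adjusted p of 1. When all 18 libraries were fitted together with a term for lane, the striatal value was 0.20. The frontal and hippocampal values with lane within the region were 0.21 and 0.25.

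The regions of each animal were then added, so that each animal counted once. Each sum includes the striatal library, so that lane is partly confounded with genotype in the sums too. The mean Grin1 level over the 3 regions was 382, 370 and 365 CPM in the WT animals and 437, 453 and 439.9 CPM in the mutants. The animals of the 2 genotypes did not overlap, as was the case with higher mutant values for 14.4% of genes. The log2 fold change of Grin1 in the summed counts was 0.24 ± 0.0424, a rise of 17.8% with an edgeR adjusted p of 0.0492 (n = 3 animals per genotype). In this comparison 1.39% of all genes were called at an adjusted p under 0.05, and 0.992% were called as higher. Grin1 was the 1 member called. The call lies at the threshold: with DESeq2's size factors in the edgeR fit the adjusted p was 0.0506, and without any 1 of the 6 animals it was between 0.0692 and 0.240 while the log2 fold change stayed between 0.22 and 0.26. With pairs of animals as a block, a setting chosen after the data were seen, the log2 fold change of Grin1 was 0.24 with an edgeR adjusted p of 0.0791 in the sums, and 0.33 with an edgeR adjusted p of 0.0482 in the striatum. The DESeq2 test of the sums gave an adjusted p of 2.49e-05.

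Markers of other cells moved with genotype in the same libraries. All 6 oligodendrocyte markers (Mbp, Mog, Mag, Mobp, Cnp, Cldn11) had lower values in the mutants in the sums per animal, with a median log2 fold change of −0.49, and of these Mag passed the edgeR test (−0.46 ± 0.0750, adjusted p 0.0397). Their summed level was 1268 to 1778 CPM in the WT frontal cortex and 1114 to 1195 CPM in the mutant, 6154 to 6482 and 3634 to 6249 CPM in the striatum, and 3232 to 6842 and 2442 to 3912 CPM in the hippocampus. The 7 neuronal markers summed to 7900 to 9238 CPM in the WT frontal cortex and to 9309.5 to 9638 CPM in the mutant. In the striatum they summed to 3733 to 4065 and 3753 to 3807 CPM, and in the hippocampus to 5479 to 6800 and 5692 to 7608 CPM. In each group all markers of both lists were detected. The 8 markers of GABA interneurons summed to 856 to 1068 CPM in WT and 1065 to 1167 CPM in mutant frontal cortex, and 4 of them had an unadjusted p under 0.05 in the sums per animal, all higher, with 0 called by edgeR (17.2% of all genes had such a p). In the frontal cortex alone, where 1.74% of all genes were called, 1 of the 8 was called by edgeR, Sst (0.43 ± 0.0832, adjusted p 0.0426).

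Some lists of other tissue and cells also differed. In the sums per animal all 6 thalamic markers had an unadjusted p under 0.05, with a median log2 fold change of −0.96, and of these Lef1 was called by edgeR (adjusted p 0.0363). The thalamic list summed to 173 to 191 CPM in WT and 192 to 213 CPM in mutant frontal cortex, 158 to 304 and 137 to 147 CPM in the striatum, and 320.3 to 696 and 163 to 371 CPM in the hippocampus. Of the 7 microglial markers 6 had such a p, all lower, with a median of −0.33, and of the 6 endothelial markers 2, also lower, with a median of −0.32, and edgeR called 0 of both lists. The sum of the olfactory bulb markers was 18.3 to 119 CPM in WT and 84.2 to 243 CPM in mutant striatum, with overlap, where 2 of the 5 genes had values above 0, the median was −0.05 and edgeR called 0 (1 at an unadjusted p under 0.05). Over the sums per animal their median was 0.14, with 0 of 5 called by edgeR and 0 at an unadjusted p under 0.05. The frontal cortex markers summed to 2641 to 2692 CPM in WT and 3011 to 3193 CPM in mutant frontal cortex and to 1685 to 2231 and 2236 to 2806 CPM in the hippocampus, without overlap in either region, and to 57.2 to 124 and 55.4 to 67.6 CPM in the striatum. Of these 7 markers edgeR called 1 higher in the frontal cortex (1.74% of all genes were called) and 1 higher in the sums per animal (1.39%), with medians of 0.02 and 0.08. In the striatum 0 of the 7 had values above 0, with a median of −0.60, 2 at an unadjusted p under 0.05 and 0 called. In the hippocampus the median was 0.14, with 1 higher and 2 lower at such a p and 0 called. Of the 6 striatal markers 1 was called higher by edgeR in the frontal cortex and 1 in the sums, where 3 had an unadjusted p under 0.05, all higher, and the median was 0.12. In the striatum 0 of these 6 were called and 3 had such a p, all higher, with a median of 0.19. Of the 7 hippocampal markers 2 had such a p in the sums, higher, with a median of −0.02. Of the 7 astrocyte markers 1 did, lower, with a median of −0.13, and edgeR called 0 of either list. The choroid plexus list had a median of −1.04 in the sums, and of −3.44 in the striatum, where it summed to 52.4 to 6015 CPM in WT and 31.2 to 168 CPM in mutant libraries. The 6015 CPM were of 1 WT library, and the other WT striatum libraries held 52.4 and 53.6 CPM. In the striatum and in the sums edgeR called 0 of the 7 choroid plexus markers. For the 7 neuronal markers the median log2 fold change was −0.02 in the sums per animal (0 called by edgeR, 1 higher at an unadjusted p under 0.05), 0.02 in the frontal cortex (1 called higher by edgeR), −0.20 in the striatum (0 called, 3 lower and 1 higher at an unadjusted p under 0.05) and −0.0022 in the hippocampus (0 called, 1 lower at such a p). The part of these cell markers in the Grin1 difference was not tested.

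Grin2b, the GluN2 subunit gene with the most reads, had higher means in the mutants in each region but a wide spread between libraries. The WT frontal cortex gave 74.4, 94.6 and 151 CPM and the mutant 109.7, 132 and 141 CPM. The striatum gave 119, 81.7 and 80.6 CPM in WT and 189, 85.1 and 127 CPM in mutant libraries. These groups overlapped. In the hippocampus they did not, with 100.4, 119.7 and 117 CPM in WT and 186, 150.3 and 173 CPM in mutant libraries, a separation that 10.6% of all genes showed. The log2 fold change of Grin2b was 0.25 ± 0.223 (frontal cortex), 0.51 ± 0.271 (striatum) and 0.58 ± 0.108 (hippocampus). None passed the edgeR test, with adjusted p values of 0.648, 0.454 and 0.391. DESeq2 called the hippocampal difference (0.57, adjusted p 0.000869).

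The frontal and striatal values of Grin2b rested on single libraries. Without replicate 3 of the WT frontal cortex, the library with 151 CPM, the frontal value was 0.59 with an edgeR adjusted p of 0.0339, and without replicate 1 of the WT frontal cortex it was 0.04. With lane within the region it was −0.01, and with lane in a fit of 18 libraries 0.20. Without replicate 1 of the mutant striatum the striatal value was 0.18, and with lane in the fit of 18 libraries it was 0.85. In the sums per animal Grin2b had a log2 fold change of 0.45 ± 0.162 and an edgeR adjusted p of 0.221, with means over the regions of 85.5, 98.3 and 129 CPM in WT animals and 161, 122 and 147 CPM in mutants. DESeq2 gave the sums an adjusted p of 0.0397.

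Grin2a, the other main GluN2 gene of the adult forebrain, gave 23.2, 33.1 and 53.2 CPM in the WT frontal cortex and 39.3, 38.4 and 50.3 CPM in the mutant. The striatal values were 25.0, 15.9 and 15.1 CPM in WT and 27.4, 15.1 and 19.5 CPM in mutant libraries, and the hippocampal values 40.4, 53.9 and 61.7 CPM and 79.6, 52.3 and 79.7 CPM. The genotypes overlapped in each region. The log2 fold changes of 0.22 ± 0.252, 0.15 ± 0.249 and 0.42 ± 0.204 did not pass the edgeR test (adjusted p 0.739, 0.841 and 0.539), nor did the value of 0.32 ± 0.231 in the sums per animal (adjusted p 0.508). With 1 animal left out the Grin2a value in the sums ranged from 0.15 to 0.57, without a call by edgeR. With lane in a fit of 18 libraries the striatal Grin2a value was 0.58 (edgeR adjusted p 0.455).

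The remaining subunit genes did not pass the genotype test in any region. Grin2c had log2 fold changes of −0.12 ± 0.167, −0.03 ± 0.0895 and 0.03 ± 0.132, in the same order of regions, and its groups overlapped. For Grin2d the frontal value was −0.03 ± 0.0865 and the striatal value −0.06 ± 0.113. In the hippocampus the Grin2d values were 20.4, 22.2 and 19.4 CPM in WT and 13.5, 17.9 and 18.8 CPM in mutant libraries, without overlap, and the log2 fold change was −0.32 ± 0.138 with an edgeR adjusted p of 0.499. Of all genes, 6.46% were lower in each mutant hippocampal library. Grin3a had log2 fold changes of 0.07 ± 0.0867, −0.17 ± 0.0995 and −0.07 ± 0.199.

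**Figure D2:**
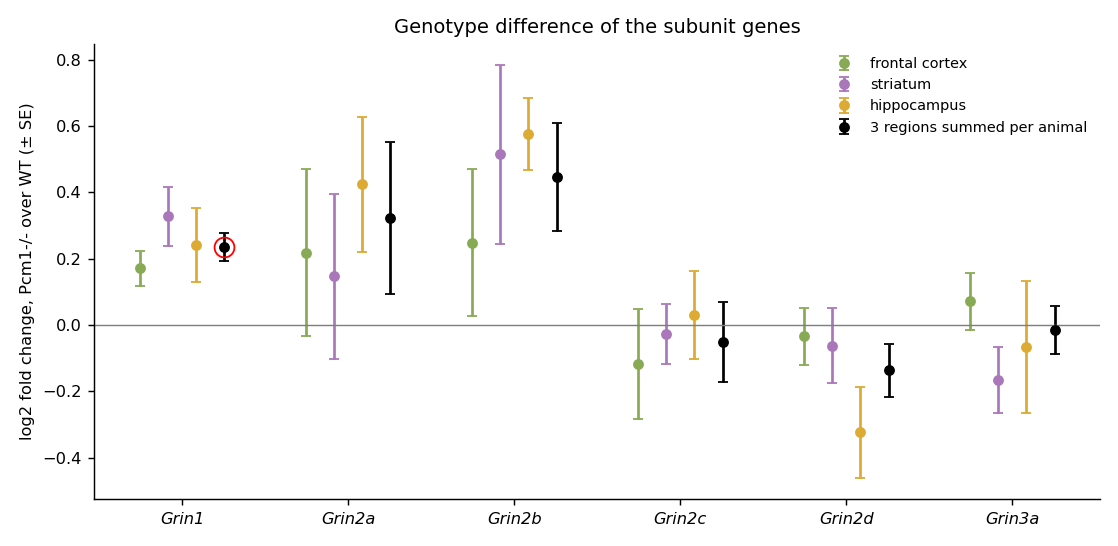
Log2 fold change of the 6 subunit genes, Pcm1-/- over WT, with its standard error, from edgeR fits of each region (3 libraries per genotype) and of counts summed per animal (3 animals per genotype). A red circle marks an adjusted p under 0.05, which Grin1 reached in the sums (0.24), and the bar of Grin2a is wide in each region (SE 0.252, 0.249 and 0.204).

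In total 0 of the 6 members were called between genotypes by edgeR in the frontal cortex, against 1.74% of all genes. In the striatum 0 were called against 0.0285%, and in the hippocampus 0 against 0.0171%. At an unadjusted p under 0.05 there was 1 member in the frontal cortex (Grin1), 1 in the striatum (Grin1) and 2 in the hippocampus (Grin2b and Grin2d), beside 15.3%, 13.5% and 9.89% of all genes. DESeq2 called 0 members in the frontal cortex, 1 in the striatum (Grin1, adjusted p 0.0235) and 1 in the hippocampus (Grin2b). Of all genes it called 687, 488 and 212 in these regions, more than edgeR's 306, 5 and 3. The median log2 fold change of the members was 0.12, 0.06 and 0.14 in these regions, with medians over all genes of −0.01, −0.00 and −0.00. The interaction of genotype and region gave 0 members called by edgeR, against 0.0114% of all genes, and 0 at an unadjusted p under 0.05, against 5.54% of all genes. DESeq2 also called 0 members for it, and 94 genes in all. The 6 unadjusted p values were between 0.237 and 0.782 in edgeR.

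Between regions Grin2a, Grin2d and Grin3a passed the test in some comparisons. Grin3a was highest in the frontal cortex, with 51.0, 54.9 and 65.2 CPM in WT and 60.5, 58.2 and 61.9 CPM in mutant libraries. The striatum held 22.1, 27.7 and 25.3 CPM in WT and 23.1, 20.5 and 23.2 CPM in mutant libraries. The hippocampus lay between them, with 30.5, 54.1 and 43.2 CPM in WT and 36.3, 48.5 and 38.7 CPM in mutant libraries. Striatal Grin3a was below frontal Grin3a by a log2 fold change of −1.18 ± 0.188 in WT mice (edgeR adjusted p 0.00058) and of −1.43 ± 0.102 in mutants (edgeR adjusted p 8.34e-07). It was also below the hippocampal level, by −0.76 ± 0.187 in WT mice (edgeR adjusted p 0.0113) and −0.87 ± 0.102 in mutants (edgeR adjusted p 4.32e-05). The step from frontal cortex to hippocampus was −0.56 ± 0.0990 in mutants (edgeR adjusted p 0.00113) and −0.42 ± 0.184 in WT mice, where it did not pass (edgeR adjusted p 0.110) and the libraries overlapped. The mutant call was lost with lane in a fit of 18 libraries (−0.43, edgeR adjusted p 0.0813). The WT difference passed with the replicate block (−0.45, edgeR adjusted p 0.0378) and in the fits of 18 libraries without and with lane (edgeR adjusted p 0.0461 and 0.0438), but not with the animal as the block (−0.44, edgeR adjusted p 0.0797).

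Grin2a was also lowest in the striatum, but was highest in the hippocampus. Between striatum and hippocampus the log2 fold change of Grin2a was −1.47 ± 0.301 in WT mice (edgeR adjusted p 0.0038) and −1.77 ± 0.218 in mutants (edgeR adjusted p 6.4e-05), so that striatal levels fell by 64.0% and 70.6% from the hippocampal ones. Striatal Grin2a was below frontal Grin2a by −0.97 ± 0.299 in WT mice (edgeR adjusted p 0.0250) and by −1.04 ± 0.217 in mutants (edgeR adjusted p 0.0020). The WT call was lost without replicate 3 of the WT frontal cortex (−0.59, adjusted p 0.102) and without replicates 2 or 3 of the WT striatum (−0.86 and −0.84). In the hippocampus Grin2a was above its frontal level by 0.72 ± 0.208 in mutants (edgeR adjusted p 0.0176), a call lost when 4 of the 9 mutant libraries were left out singly (0.63 to 0.66) and in the fit of 18 libraries (0.73, edgeR adjusted p 0.0506). The WT difference of 0.51 ± 0.292 did not pass (edgeR adjusted p 0.222). With the animal as a block, which compares regions within an animal, the WT difference was 0.56 with an edgeR adjusted p of 0.0117.

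Grin2d had a smaller striatal deficit. Its libraries gave 23.6, 22.6 and 19.2 CPM in the WT frontal cortex and 14.2, 16.8 and 18.4 CPM in the WT striatum, against 20.8, 21.5 and 21.9 CPM and 16.2, 16.6 and 14.4 CPM in mutants. The log2 fold change of striatum over frontal cortex was −0.40 ± 0.120 in WT mice (edgeR adjusted p 0.0209) and −0.44 ± 0.116 in mutants (edgeR adjusted p 0.0085). Mutant hippocampus was also below mutant frontal cortex, by −0.36 ± 0.116 (edgeR adjusted p 0.0288). These calls were lost once a trend of each library on transcript length and GC content was removed, a setting chosen after the data were seen, which gave −0.14, −0.25 and −0.19. The first was also lost without replicate 1 of the WT striatum (−0.31) or replicates 1 or 2 of the WT frontal cortex (−0.34 and −0.38), and the last without replicate 1 of the mutant hippocampus (−0.23) or without any 1 mutant frontal library (−0.34 to −0.38), and with lane in a fit of 18 libraries (−0.35, edgeR adjusted p 0.0744). With the animal block the WT difference of Grin2d between striatum and hippocampus, −0.33, had an edgeR adjusted p of 0.0123, against 0.0688 without the block.

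Grin1, Grin2b and Grin2c did not pass the test between any pair of regions in either genotype. Their log2 fold changes between regions ran from −0.22 to 0.08 for Grin1, from −0.34 to 0.41 for Grin2b and from −0.24 to 0.23 for Grin2c. For Grin1 and Grin2c the standard errors were between 0.0851 and 0.171, and for Grin2b between 0.225 and 0.239. Leaving out 1 library brought some of these past the threshold. Without replicate 2 of the mutant hippocampus Grin1 differed in mutants by −0.24 between hippocampus and frontal cortex (edgeR adjusted p 0.0080) and by 0.18 between striatum and hippocampus (edgeR adjusted p 0.0323), and Grin2c by 0.29 in the latter (edgeR adjusted p 0.031). Without replicate 1 of the mutant striatum Grin2b differed by −0.67 between striatum and hippocampus (edgeR adjusted p 0.0114). Grin2c ranged from 36.8 to 66.5 CPM over all libraries, while the markers of cerebellar granule cells, the cells best known for GluN2C, summed to 20.2 to 203 CPM over 5 genes tested. Gabra6, the other gene of that list, was at no more than 3 counts in every group and was not tested, and in the striatum Barhl1, of the 5, was as low.

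Markers of cell classes also differed between the regions. Of the 7 neuronal markers, 6 were called lower by edgeR in striatum than in frontal cortex in WT mice, with a median log2 fold change of −1.18, and all 6 oligodendrocyte markers were called higher, with a median of 2.07. The mutant medians were −1.31 and 1.89. Of all genes, 41.5% in WT mice and 54.3% in mutants were called between these regions. Of the 8 markers of GABA interneurons edgeR called 3 higher and 2 lower there in WT (median −0.01), and 3 higher and 4 lower in mutants (median −0.28). Between hippocampus and frontal cortex edgeR called 4 of the 7 neuronal markers lower in both genotypes (medians −0.41 in WT and −0.47 in mutants) and all 6 oligodendrocyte markers higher (medians 1.77 and 1.45), and 5 of 8 markers of GABA interneurons lower in WT (median −0.54) and 6 of 8 in mutants (median −0.64). Of all genes, 29.8% in WT mice and 41.5% in mutants were called in that comparison. Between striatum and hippocampus 29.2% and 45% were. There edgeR called 5 of the 7 neuronal markers lower in WT (median −0.73) and 6 in mutants (median −0.84). It called 1 of the 6 oligodendrocyte markers higher in WT and 4 in mutants. Of the 8 interneuron markers 4 were called higher and 1 lower in each genotype. The part of these cell classes in the differences of Grin2a, Grin2d and Grin3a between regions was not tested.

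**Figure D3:**
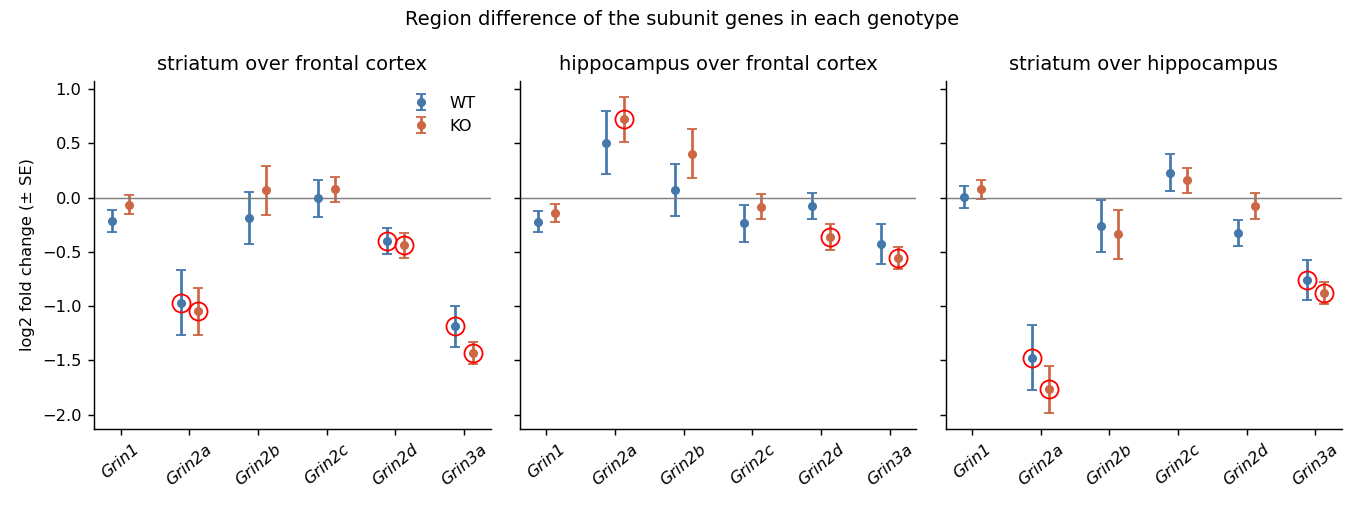
Log2 fold change of the 6 subunit genes between regions, with its standard error, from edgeR fits of the 9 WT and the 9 Pcm1-/- libraries. Red circles mark an adjusted p under 0.05. Grin3a and Grin2a are lower in the striatum in both genotypes (Grin3a −1.18 and −1.43, Grin2a −0.97 and −1.04 over frontal cortex), and Grin1, Grin2b and Grin2c carry no circle.

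Counted together, 3 of the 6 members were called between striatum and frontal cortex in WT mice (Grin2a, Grin2d and Grin3a), where 41.5% of all genes were called. Between striatum and hippocampus it was 2 members (Grin2a and Grin3a) against 29.2% of genes, and between hippocampus and frontal cortex 0 members against 29.8%, with 1 member (Grin3a) at an unadjusted p under 0.05, against 40.9% of genes, and 0 called by DESeq2. These fits did not take the animal as a block. With that block 3 WT members were called between striatum and hippocampus (6160 genes in all). Between hippocampus and frontal cortex it was 1 (6492 genes in all). In mutants the counts were 3 members against 54.3% of genes between striatum and frontal cortex, 2 against 45% between striatum and hippocampus, and 3 against 41.5% between hippocampus and frontal cortex. Apart from the last of these (Grin2a, higher in the hippocampus), each call was of a lower level in the striatum or, for Grin2d and Grin3a in mutants, in the hippocampus. Nothing is read from these counts against the shares of all genes, since 6 members give coarse shares.

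The balance of the main GluN2 genes was followed as the ratio of Grin2a to Grin2b counts in each library, which does not depend on library scaling. In the WT striatum the log2 ratio was −2.25, −2.36 and −2.41, and in the mutant striatum −2.79, −2.49 and −2.71. The frontal cortex gave −1.68, −1.52 and −1.51 in WT and −1.48, −1.77 and −1.49 in mutant libraries, and the hippocampus −1.31, −1.15 and −0.93 in WT and −1.22, −1.52 and −1.12 in mutant libraries. As geometric means there were 0.197 Grin2a reads per Grin2b read in the WT striatum, 0.337 in the WT frontal cortex and 0.457 in the WT hippocampus. Each of the 6 animals had its lowest ratio in the striatum and its highest in the hippocampus.

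Within animals the log2 ratio differed by −0.93 ± 0.271 (SD, n = 6 animals) between striatum and frontal cortex, by 0.37 ± 0.119 between hippocampus and frontal cortex and by −1.29 ± 0.256 between striatum and hippocampus. The exact paired permutation test, two-sided, gave p = 0.031 for each of the 3 region pairs, the smallest value that 6 animals allow, and 0.031 after Benjamini-Hochberg adjustment. The mutant minus WT difference of the mean log2 ratio was −0.01 for frontal cortex, −0.32 for striatum and −0.16 for hippocampus. The two-sided exact permutation p was 1, 0.1 and 0.5, where 0.1 is the smallest value that 3 animals against 3 allow, and 1, 0.3 and 0.75 after adjustment. In the striatum the 3 mutant ratios were below the 3 WT ratios, in the region whose genotypes were on different lanes.

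**Figure D4:**
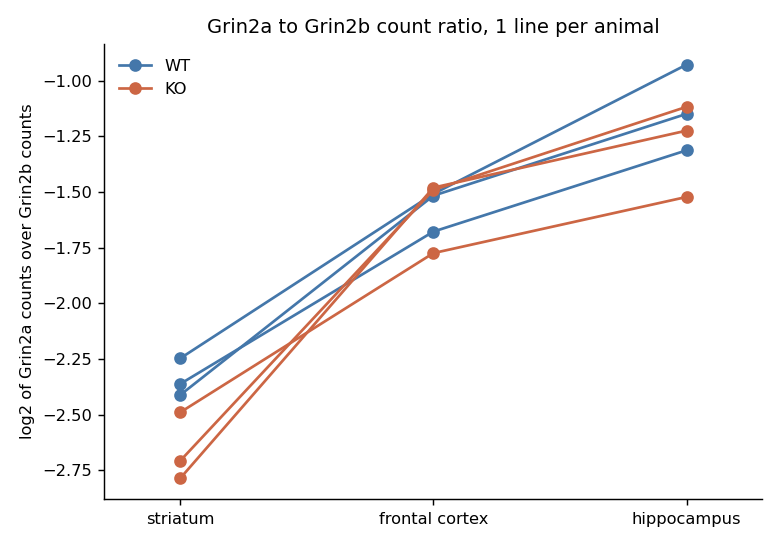
Log2 ratio of Grin2a to Grin2b counts in the 3 regions of each animal, with 1 line per animal and color for genotype. All 6 lines rise from striatum (−2.79 to −2.25) through frontal cortex to hippocampus (−1.52 to −0.93).

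Levels of different genes were compared per kilobase of annotated exons. Grin1 was the highest of the 6 in each group, at 36.4 to 47.8 CPM per kilobase, apart from the next gene in every group. Its mean share of the reads per kilobase of the 6 genes was 64.5% over the 18 libraries, and single libraries held 59.2% to 70.6%. With the union of all exons as the length, Grin2c came next (8.71 to 10.2 CPM per kilobase), followed in most groups by Grin2b (3.77 to 6.84). In the WT frontal cortex Grin3a (4.65) and Grin2b (4.30) were next to each other with overlapping ranges, as were Grin2b and Grin2d (3.27), and Grin2d and Grin2a (2.04). In the WT hippocampus Grin2b, Grin3a, Grin2d and Grin2a, at 4.53, 3.47, 3.10 and 2.90 CPM per kilobase, each overlapped with its neighbor. In the WT striatum Grin2b (3.77) stood apart from Grin2d (2.47), Grin2d and Grin3a (2.04) overlapped, and Grin2a (1.04) was apart and lowest.

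The order below Grin1 depended on which length was used, since the coding sequence has 4446 bases in Grin2b and 4392 in Grin2a, against 3717 in Grin2c and 2877 in Grin1. With the length of the coding sequence, Grin2b took the second place in each group, with 21.1 to 38.2 CPM per kilobase, against 11.8 to 13.9 for Grin2c. The share of Grin1 was then 68.0%, and with the longest transcript it was 78.0%. Grin1 was first in each of the 6 groups under all 3 lengths.

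The spread between libraries of one group differed between the members. After removal of the group means the SD of log2 CPM was 0.401 for Grin2a and 0.361 for Grin2b, higher than in 98.5% and 99.0% of genes of like level (within 0.5 log2 CPM). It was 0.221 for Grin3a, 0.217 for Grin2c, 0.158 for Grin2d and 0.120 for Grin1, and the median of genes like Grin1 was 0.115. These were higher than in 91.8%, 92.6%, 71.1% and 56.1% of genes of like level, in the same order of members. Grin2a and Grin2b deviated together: Pearson's r of their deviations over the 18 libraries was 0.920 and Spearman's rho 0.889, and r was 0.878 without the 2 libraries farthest from the median. Within regions r was 0.957 (frontal cortex), 0.967 (striatum) and 0.930 (hippocampus), with 6 libraries each. Of 12869 genes ranked by this correlation with Grin2a, Grin2b was number 42. The libraries share animals, so these values are descriptions and carry no p.

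Both genes also followed the other long transcripts of a library. A long-transcript index was taken as the median deviation of 363 genes with a longest transcript over 10000 bases minus that of 12416 other genes. Its correlation with the deviation of Grin2a was 0.905 (rho 0.880) and with that of Grin2b 0.889 (rho 0.806), against −0.105 for Grin1, 0.04 for Grin3a, −0.521 for Grin2d and −0.695 for Grin2c. The index was 0.21 in replicate 3 of the WT frontal cortex, where Grin2a was 0.63 and Grin2b 0.57 above the group mean (log2), and −0.15 in replicate 1, where they were 0.57 and 0.46 below it. Between genotypes the index differed by −0.04 in the frontal cortex and by 0.00 and 0.01 in the striatum and hippocampus. With the trend on transcript length and GC content removed, the log2 fold change of Grin2b in the sums per animal was 0.47 and that of Grin1 0.25, each with an edgeR adjusted p of 0.0273. In the same setting Grin1 in the frontal cortex was 0.21 with an edgeR adjusted p of 0.0410. What made the libraries differ in this way was not tested.

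**Figure D5:**
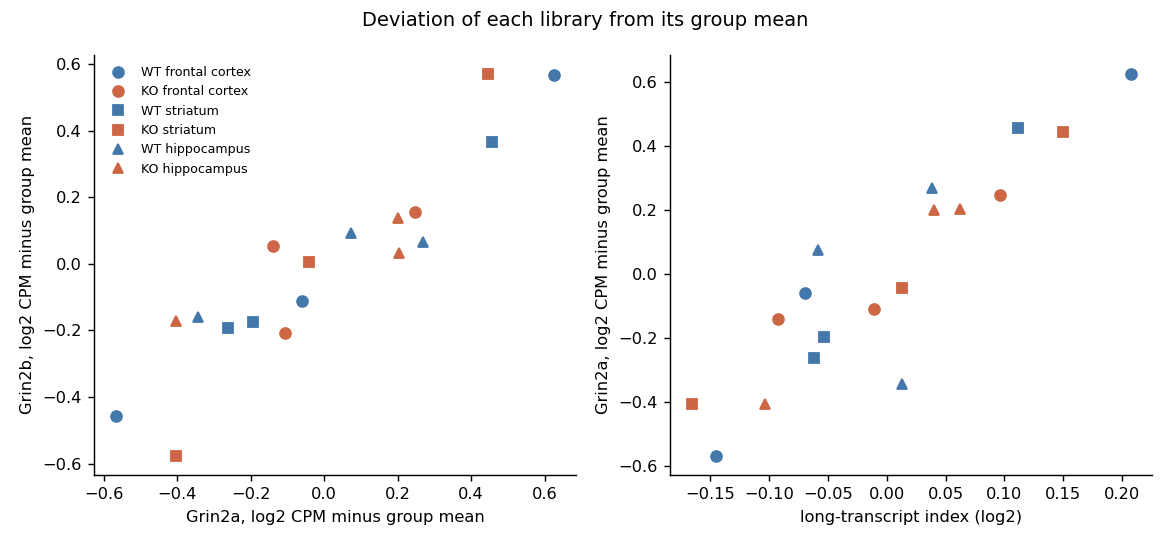
Deviation of each of the 18 libraries from its group mean in log2 CPM. The left panel plots Grin2b against Grin2a (r 0.920) and the right panel Grin2a against the long-transcript index (r 0.905), with color for genotype and shape for region.

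The genes whose log2 CPM was most like that of each member over the 18 libraries were sought among 12784 genes whose mean log2 CPM reached 1. They were Tmem63c (r 0.904), Ptprn and Agpat1 for Grin1, Nexmif (r 0.957), Plxna4 and Phf20 for Grin2a, and Samd8 (r 0.912), Bag4 and Ccnt1 for Grin2b. For Grin2c they were Bola2 (r 0.903), Ppp6r1 and Cox6c, for Grin2d Ank1 (r 0.914), Sptssb and Nutf2, and for Grin3a Dnajc6 (r 0.978), Gnai1 and Mff. No member was among the 3 genes most like another. The closest members were Grin2d and Grin3a (r 0.729) and Grin2a and Grin2b (r 0.692), here with the differences between groups included.

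Relatives of the subunits were read in the same fits. Grina, a membrane protein gene named for the NMDA receptor but not a channel subunit, gave 435, 428 and 396 CPM in the WT frontal cortex and 588, 609 and 580.3 CPM in the mutant, without overlap. Its log2 fold change was 0.49 ± 0.0548 in the frontal cortex (edgeR adjusted p 0.0081) and 0.43 ± 0.0423 in the sums per animal (edgeR adjusted p 0.0203). With pairs of animals as a block the striatal Grina value of 0.44 had an edgeR adjusted p of 0.0289. Without the block the striatal value of 0.44 ± 0.0627 and the hippocampal value of 0.40 ± 0.0897 did not pass the edgeR test (adjusted p 0.0921 and 0.391). Its levels were 471, 443 and 448 CPM in WT and 609, 608.8 and 622 CPM in mutant striatum, and 528, 540.3 and 482 CPM in WT and 670.0, 749 and 648 CPM in mutant hippocampus, without overlap in either. DESeq2 called both Grina values, at 0.43 (adjusted p 9.46e-10) for striatum and 0.39 (adjusted p 0.0032) for hippocampus, as did 1 edgeR fit of all 18 libraries (adjusted p 0.0093 and 0.0123), and with lane in that fit the call was lost in the striatum (0.34, edgeR adjusted p 0.149). Without 1 library or animal the Grina difference ranged from 0.45 to 0.52 (frontal cortex) and from 0.41 to 0.44 (sums per animal), although the call was lost in 2 of 6 and 5 of 6 cases. Grin3b, the other GluN3 gene, was listed at 0 to 16 counts per library, with 13, 16 and 13 counts in the WT striatum against 3, 3 and 0 in the WT frontal cortex. It passed the filter on low counts only through libraries of the striatum, so no test of it is given.

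The 34 partner genes, listed for what they are known to do at the receptor, were scaffolds (8), kinases, phosphatases and other signalling proteins (12), genes of co-agonist supply (6) and of anchoring and trafficking (8). In the frontal cortex 8 of 34 had an unadjusted p under 0.05 (2 higher and 6 lower, beside 15.3% of all genes), and 1 of 34 was called in the edgeR test (1.74% of all genes), Camk2a, the kinase subunit that binds GluN2B and acts downstream of calcium entry. Camk2a gave 5782, 5159 and 5035 CPM in WT and 4428, 4114 and 4348 CPM in mutant frontal cortex, a log2 fold change of −0.32 ± 0.0631 with an edgeR adjusted p of 0.0475. The call was lost in 5 of 6 cases when 1 library was left out (−0.35 to −0.25 over all 6), with lane within the region (−0.25, edgeR adjusted p 0.127), and in the fits of 18 libraries without and with lane (−0.31 and −0.21, edgeR adjusted p 0.399 and 0.647). For the striatum, the hippocampus and the sums per animal 0 of 34 were called by edgeR, with 1, 3 and 4 at an unadjusted p under 0.05, beside 13.5%, 9.89% and 17.2% of all genes. In the striatum the smallest p values were of Slc1a4, a neutral amino acid transporter that carries serine (0.27 ± 0.0824, edgeR adjusted p 0.235), and Ptpn5, the phosphatase STEP (0.16 ± 0.0705, edgeR adjusted p 0.383). In the hippocampus the smallest p of a partner with a test given was of Slc6a9, the glycine transporter GlyT1 (−0.47 ± 0.153, edgeR adjusted p 0.425). Dao, the D-amino acid oxidase, is also among the 3 counted there at an unadjusted p under 0.05. It had 10, 7 and 16 counts in WT hippocampus and at most 6 counts in any other library. Dao thus passed the filter on low counts only through a group of that comparison, so no test of it is given. Median log2 fold changes over the 34 genes were −0.02, 0.03 and 0.08 in the 3 regions, in the order frontal cortex, striatum, hippocampus.

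Between regions more partners were called. In WT mice, where 41.5%, 29.8% and 29.2% of all genes were called in the 3 comparisons, it was 29 of 34 between striatum and frontal cortex (12 higher and 17 lower), 21 between hippocampus and frontal cortex and 23 between striatum and hippocampus. In mutants it was 28, 25 and 20, beside 54.3%, 41.5% and 45% of all genes. Actn2, an actinin that anchors GluN1, was higher in the striatum than in the frontal cortex by a log2 fold change of 3.57 ± 0.196 in WT mice (edgeR adjusted p 4.03e-07) and 3.76 ± 0.118 in mutants (edgeR adjusted p 1.87e-09). Rasgrf2, a Ras exchange factor downstream of the receptor, was lower there by −2.46 ± 0.112 in WT mice (edgeR adjusted p 1.29e-07) and −2.19 ± 0.0935 in mutants (edgeR adjusted p 1.6e-08). Ptpn5 was higher in the striatum than in the hippocampus by 2.48 ± 0.0834 in WT mice (edgeR adjusted p 1.7e-08) and 2.42 ± 0.0972 in mutants (edgeR adjusted p 1.05e-08). Ephb2, a receptor kinase that binds GluN1, was lower in the striatum than in the hippocampus of mutants by −2.70 ± 0.0655 (edgeR adjusted p 3.6e-10). Actn2 was higher there by 3.33 ± 0.193 in WT mice (edgeR adjusted p 6.02e-07) and 3.26 ± 0.114 in mutants (edgeR adjusted p 3.89e-09). Between hippocampus and frontal cortex Rasgrf2 was lower in the hippocampus by −1.34 ± 0.108 in WT mice (edgeR adjusted p 1.39e-05) and −1.25 ± 0.0904 in mutants (edgeR adjusted p 2.1e-06). Lin7a, a scaffold of the LIN-7 family, was lower in the hippocampus of WT mice by −1.09 ± 0.0844 (edgeR adjusted p 1.08e-05). Nos1, the neuronal nitric oxide synthase, was higher in the hippocampus of mutants by 1.23 ± 0.156 (edgeR adjusted p 0.000116). The counts of partners called include Dao between hippocampus and frontal cortex in WT mice and in mutants, and between striatum and hippocampus in WT mice. Since Dao passed the filter only through WT hippocampus, nothing is read from these calls and no test of it between regions is given.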

How the data were processed

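Adult mouse brain libraries were made with a stranded KAPA mRNA kit. The authors trimmed reads with Trim Galore and cutadapt (reads of at least 20 bases kept), aligned them with STAR to GRCm38 and counted unique reads on genes with HTSeq. The values the authors deposited are these raw counts, with no header and no normalization, and tool versions and the strand setting of the counting were not given in the sources used here. Between 10.8% and 13.2% of reads per library were assigned to no gene and were left out.

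The 17545 genes that reached 10 counts in any of the 18 libraries were tested with edgeR 4.0.16 in R 4.3.3: TMM scaling, quasi-likelihood fits of each region by genotype, of each genotype by region and of counts summed per animal, and Benjamini-Hochberg adjustment over all genes with a threshold of 0.05. Each standard error was derived from the log2 fold change and its F statistic. DESeq2 1.42.0, other filters and scalings, blocks, lane (from the sample descriptions) and left-out libraries were alternatives, and the removal of a length and GC trend was added after seeing the data. Log2 CPM used a prior count of 2. Summaries and exact tests used Python 3.11.15, pandas 2.3.3, numpy 2.4.6 and scipy 1.17.1, plots matplotlib 3.10.9. Gene positions and lengths are from GENCODE vM21 on GRCm38. The scripts' tests were tested on simulated data. The members and lists were chosen with earlier results of these data known. A marker was left out of each of the striatal and oligodendrocyte lists and is not reported here. Besides the members, partners were named where called between genotypes (otherwise the 3 with the smallest p, relatives included) and for the 3 largest called differences between regions. No test of Grin3b or Dao is given, since they passed the filter through 1 region, but Dao remains in the counts of partners.

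Pairs of libraries of a group differed by more than sampling noise (chi-square per degree of freedom at least 7.02 in 18 pairs), so none was the same library sequenced again; this does not show that samples came from separate dissections. Same-numbered WT and mutant libraries deviated together in the frontal cortex (r 0.121 to 0.443) and hippocampus (0.183 to 0.629) but not in the striatum (−0.417 to 0.279), where the numbers of the WT libraries do not follow the animals. With the animals that share a number in the other regions taken as pairs, r in the striatum was 0.160, 0.385 and 0.547. These pairs rest on the data and the numbers, since no label ties a WT to a mutant animal, and they were added as a block for the striatum and the sums after seeing the data. The animal of each library was read from the names of the counted files. Libraries of 1 animal correlated across regions at 0.143 to 0.523 in WT and 0.173 to 0.476 in mutant mice. With depths of 24950537 to 33405081 reads, a member had between 385 and 15121 counts per library, so that spread between libraries rather than counting error limits the precision.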

Additional observations from a re-analysis of the deposited data

How the results depend on the processing

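Limits. Groups of 3 animals leave wide errors for Grin2a and Grin2b, lane cannot be separated from genotype in the striatum, where no fit with lane within the region was possible, and the Grin1 call in the sums per animal rests at the threshold. Unless stated, the cause of a change was not tested. Of the member and partner values under settings that left out no library, 776 kept direction and side of the threshold, 20 newly passed it, 15 no longer did and 21 reversed. With 1 library left out these counts were 736, 8, 43 and 29.

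All genes called between genotypes in the frontal cortex (306) numbered 505 with no filter, 687 in DESeq2, 176 in 1 fit of 18 libraries, 95 with lane in it and 29 with lane within the region, and 665 with the replicate block, where the numbers pair the samples. The striatum (5) gave 61, 488, 54 and 8 in the first 4 settings 3 with the replicate block and 200 with animal pairs as the block, the hippocampus (3) 212 in DESeq2, 205 in 1 fit, 160 with lane in it and 9 with the replicate block. The block by number changed no member's genotype call, while the block by animal pair brought the members called to 1 in the striatum (Grin1, main 0) and to 0 in the sums (main 1). The sums (243) gave 1203 in DESeq2 and 28 with animal pairs as the block. The interaction (2) gave 0 with DESeq2's size factors, edgeR's own filter, lane, the animal block and the length and GC trend removed, and 94 in DESeq2. Members called were 1 in the frontal cortex with the trend removed (main 0), 1 each in the striatum and hippocampus in DESeq2 (main 0), and in the sums (main 1) 0 with DESeq2's size factors, 2 in DESeq2 and 2 with the trend removed. Between hippocampus and frontal cortex 1 WT member (main 0) was called, Grin3a in 1 fit, with lane and with the replicate block, and Grin2a in its place with the animal block, and 1 mutant member (main 3) with lane. The Grin1 share (64.5%) was 78.0% with the longest transcript and 68.0% with the coding sequence.

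With 1 library or animal left out, all genes called ranged over 11 to 825 (frontal cortex), 2 to 5 (striatum), 1 to 11 (hippocampus), 4 to 398 (sums) and 0 to 22 (interaction). Members called ranged from 0 to 1 in the frontal cortex, were 0 in the sums, and ranged from 0 to 1 for WT hippocampus over frontal cortex, 1 to 4 for the same in mutants and 2 to 4 for mutant striatum over hippocampus. The log2 ratio of Grin2a to Grin2b ranged from −0.069 to 0.082 for genotype in the frontal cortex, −0.41 to −0.26 in the striatum and −0.25 to −0.041 in the hippocampus, −0.97 to −0.85 for striatum over frontal cortex, 0.32 to 0.39 for hippocampus over frontal cortex and −1.36 to −1.23 for striatum over hippocampus, where 5 animals cannot reach the threshold.

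Single genes that reversed were uncalled on both sides. With lane within the frontal cortex the genotype values were −0.060 (Grin2a), −0.0058 (Grin2b), 0.13 (Grin2c), 0.039 (Grin2d) and −0.017 (Grin3a), and within the hippocampus 0.17 (Grin3a). With lane in 1 fit they were 0.022 (Grin2c, frontal cortex) and 0.030 (Grin3a, hippocampus). With the trend removed they were 0.0055 for Grin3a in the sums, 0.15 for Grin2d (WT hippocampus over frontal cortex), 0.067 for Grin1 and −0.077 for Grin2b (mutant striatum over frontal cortex), 0.069 for Grin2c (mutant hippocampus over frontal cortex) and 0.20 for Grin2c (WT striatum over frontal cortex). The last was 0.19 with lane and 0.018 with no filter, 0.016 with the replicate block and 0.016 with the animal block. Grin2c was −0.10 with lane for mutant striatum over frontal cortex, and Grin1 −0.0066 for WT striatum over hippocampus with DESeq2 and its size factors. With 1 library left out, the genotype ranges that crossed 0 were −0.026 to 0.59 and −0.11 to 0.41 for Grin2a (frontal cortex, striatum), −0.25 to 0.11, −0.093 to 0.077, −0.090 to 0.10 and −0.15 to 0.092 for Grin2c (frontal cortex, striatum, hippocampus, sums), −0.12 to 0.027 and −0.16 to 0.024 for Grin2d (frontal cortex, striatum), and −0.0044 to 0.18, −0.26 to 0.13 and −0.094 to 0.030 for Grin3a (frontal cortex, hippocampus, sums). Between regions they were −0.083 to 0.058 for Grin1 (WT striatum over hippocampus), −0.40 to 0.15, −0.13 to 0.41 and −0.26 to 0.31 for Grin2b (WT striatum and hippocampus, mutant striatum, over frontal cortex), −0.14 to 0.22, −0.022 to 0.17 and −0.21 to 0.010 for Grin2c (WT striatum, mutant striatum and mutant hippocampus over frontal cortex) and −0.21 to 0.019 for Grin2d (mutant striatum over hippocampus).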
